A study of Saccharomyces cerevisiae with 4 samples.

Results

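The mRNA levels of 10 autophagy genes were examined in respiring yeast with and without the RNA-binding protein Puf3p. The genes were picked by their identifiers for their roles, with earlier results of these data known, and are 10 of the 6673 genes listed in each library. Of these, 7 belong to the core machinery that every form of autophagy uses (ATG1, ATG5, ATG7, ATG8, ATG9, ATG13 and ATG14), and 3 serve the selective removal of mitochondria, or mitophagy (ATG11, ATG32 and ATG33). RNA was sequenced from 2 libraries of a strain without *PUF3* (*PUF3Δ*) and from 2 libraries of its wild type (WT), which the labels name BY4742. After an overnight culture in YPD, per the methods of the study, both strains were grown from 0.01 OD to 1.0 OD in fresh YPEG. YPEG is a rich medium in which ethanol and glycerol are the carbon sources, and no agent was added to either strain. The labels give BY4742 as the strain of all 4 libraries, and for the wild type they list MATa with his3Δ1, leu2Δ0, met15Δ0 and ura3Δ0, whereas the methods of the study name BY4741. The values are RPKM, read counts divided by gene length and by the reads on all listed genes, so each value is a share of a library and a change in the total mRNA of a cell cannot be seen.

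In autophagy, a double membrane grows around a piece of cytoplasm and delivers it to the vacuole, the lytic compartment of yeast, for breakdown. The kinase Atg1 and its partner Atg13 start the process, vesicles that carry the membrane protein Atg9 supply the first membrane, and a lipid kinase complex that contains Atg14 marks the site. A ubiquitin-like system, with Atg7 as the activating enzyme and Atg5 as part of the last ligase, then couples Atg8 to lipid on the growing membrane. In mitophagy the receptor Atg32 in the outer mitochondrial membrane binds Atg8 and the scaffold protein Atg11, and Atg33 is a further protein of that membrane. Mitophagy in yeast is best known from cells that have grown for long on a non-fermentable carbon source. Puf3p binds mRNAs of many mitochondrial proteins downstream of the stop codon.

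None of the 10 genes had the Puf3p recognition element TGTANATA on the coding strand within 200 nt downstream of the stop codon in the reference genome R64, where 14.1% of 5966 nuclear protein-coding genes had it. This says only that these letters are not in that window. In the 300 nt upstream of the start codon, GGCGGC, the core of the element bound by the repressor Ume6, was searched on both strands and found in ATG8 alone among the 10, with overlapping matches in a single run, and in 5.18% of all genes. AGGGG, the stress response element and also the motif of the repressor Rph1, was found on either strand in ATG8, ATG9 and ATG32, and in 22.1% of all genes. CCAAT, the element of the respiratory activator Hap2/3/4/5, was found on either strand in ATG9, ATG14 and ATG33, and in 41.9% of all genes. The Ume6 and AGGGG matches are shown 5′ to 3′ on the coding strand of their gene, with the motif in capitals (CCCCT is AGGGG on the other strand), because Ume6 and Rph1 are known repressors of autophagy genes whose own mRNAs are described further on.
ATG8, Ume6 core, chrII:80856-80864, minus strand: gttattttcGGCGGCGGCaaaaatatt
ATG8, distal AGGGG, chrII:80818-80822, minus strand: aatacaaaaAGGGGaaccattaa
ATG8, proximal AGGGG, chrII:80795-80799, minus strand: aggttgaggAGGGGattgataag
ATG9, AGGGG, chrIV:184803-184807, plus strand: cggaactttAGGGGagccacact
ATG32, AGGGG, chrIX:76033-76037, minus strand: tttgacgcaCCCCTtttacaaaa

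The libraries held 6703910 and 8119223 reads on genes in *PUF3Δ* and 7370059 and 8228693 in WT. *PUF3* (YLL013C) had 2 and 6 reads in *PUF3Δ*, against 569 and 761 in WT, as the strain labels have it. The members had between 76 and 1897 reads in a library. The shallowest value, 76 reads of ATG14 in *PUF3Δ*, has an exact Poisson 95% interval of 59.9 to 95.1 reads, which covers counting error only. None of the 10 overlapped another gene in the files or in R64. LYS2, which BY4742 lacks, had at most 4 reads in any library, and the alpha-cell gene MF(ALPHA)1 had 5560 and 7432 reads in *PUF3Δ* and 18500 and 16472 in WT, against 40 and 50 in *PUF3Δ* and 147 and 144 in WT for the a-cell gene STE2, which goes against the mating type a of the labels in both strains. MET17, also known as MET15, had 1120 and 1196 reads in *PUF3Δ*, against 5041 and 5868 in WT, which goes against the listed met15Δ0, although it overlaps another listed gene. The labels number the libraries as replicates and do not say that they came from separate cultures, so the p-values measure the spread between these libraries, which may be technical.

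Strains were compared with limma on log2(RPKM + 1) over 5860 genes whose RPKM averaged 1 or more, and a gene was called at a Benjamini-Hochberg adjusted p under 0.05 over all of them. All 10 members passed the filter. ATG9, ATG11, ATG32 and ATG33 were higher in *PUF3Δ* and ATG7 and ATG14 were lower, while ATG1, ATG5, ATG8 and ATG13 did not pass the threshold. These 4 higher and 2 lower of 10 are to be read against 18.9% of all genes called higher and 54.2% called lower. Without regard to the test, the libraries of the strains did not overlap for 5 members that were higher in *PUF3Δ* and 2 that were lower, against 24.9% and 62.6% of all genes. The median log2 fold change was 0.21 over the 10 genes and -0.39 over all genes tested, and 8 of the 10 lay above that of all genes. The median of all genes moved to -0.01 when the libraries were brought to a common scale by median-of-ratios scaling. The distance to the median of all genes as deposited is therefore given for each member. It was 0.71 for ATG1, 0.29 for ATG5, 0.46 for ATG8, 0.87 for ATG11, 0.50 for ATG13 and 0.69 for ATG33. For ATG7, ATG9, ATG14 and ATG32 it stands beside the fold change further on. Under median-of-ratios scaling ATG1, ATG8 and ATG13 passed as well, which gave 7 higher and 2 lower members, against 33.9% of all genes higher and 33.2% lower.

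**Figure D1:**
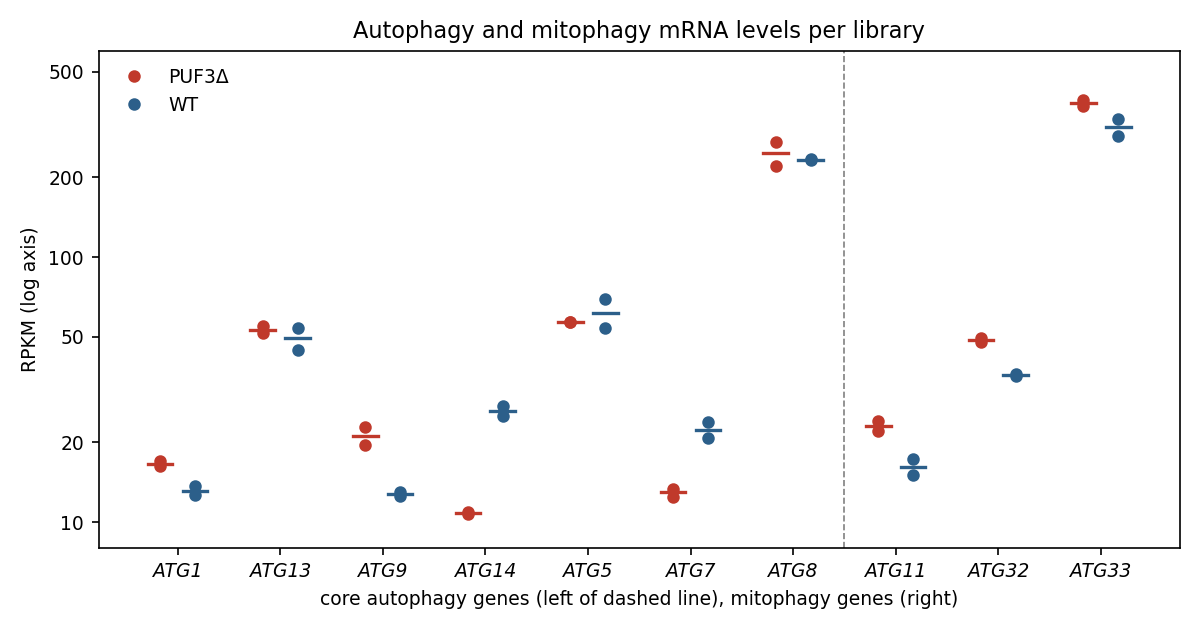
RPKM on a log axis for each of the 10 genes, with *PUF3Δ* in red to the left and WT in blue to the right, points for the 2 libraries of a strain and bars for their mean. ATG33 and ATG8 stand above 200 in every library, and the strains are furthest apart for ATG14 (means of 10.8 in *PUF3Δ* and 26.3 in WT) and ATG9 (21.1 in *PUF3Δ* and 12.8 in WT).

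The levels per length covered a wide range. In *PUF3Δ*, ATG33 was the highest with 381.9 ± 15.3 RPKM (SD, n = 2), followed by ATG8 with 246.4 ± 35.4. ATG5 (56.9), ATG13 (53.2) and ATG32 (48.6) formed the middle, and ATG11 (23.1), ATG9 (21.1), ATG1 (16.6), ATG7 (12.9) and ATG14 (10.8) the lower end. Among neighbours in this order, the libraries of ATG11 and ATG9 overlapped and the others did not. In WT the order began in the same way, with ATG33 at 308.9 ± 33.3 RPKM (SD, n = 2) and ATG8 at 232.9 ± 0.766, followed by ATG5 (61.5), ATG13 (49.3) and ATG32 (35.9), and the lower end ran ATG14 (26.3), ATG7 (22.3), ATG11 (16.2), ATG1 (13.1) and ATG9 (12.8). There the neighbours ATG5 and ATG13 overlapped, as did ATG1 and ATG9. ATG9, the lowest of the 10 in WT, was seventh in *PUF3Δ*, and ATG14, sixth in WT, was the lowest in *PUF3Δ*. ATG33 lay at the 92.3rd percentile of all tested genes in *PUF3Δ* and at the 89.9th in WT, whereas ATG1 lay at the 20.1st in *PUF3Δ* and at the 11.6th in WT.

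In the kinase complex that starts autophagy, neither member passed the threshold. ATG1 (YGL180W, chromosome VII of R64 from 160065 to 162758) had 16.3 and 16.96 RPKM in *PUF3Δ*, against 13.6 and 12.6 in WT. The strains did not overlap, and the log2 fold change was 0.32 (standard error 0.13) with an adjusted p of 0.054 from limma, just outside the threshold. ATG13 (YPR185W, XVI from 907218 to 909434), whose product is the regulatory partner that the TOR kinase phosphorylates in fed cells, had 51.6 and 54.9 RPKM in *PUF3Δ* and 44.5 and 54.1 in WT. The strains overlapped, and the 95% interval of the log2 fold change of 0.11 ran from -0.16 to 0.39. The difference of the log2 levels of ATG1 and ATG13 within a library also overlapped between the strains, with -1.60 and -1.64 in *PUF3Δ* and -1.64 and -2.02 in WT.

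ATG9 (YDL149W, IV from 184925 to 187918), which encodes the integral membrane protein of the donor vesicles, had the largest increase of the 10 as deposited. It had 19.5 and 22.8 RPKM in *PUF3Δ*, against 12.5 and 13.0 in WT, from 391 and 554 reads in *PUF3Δ* and 277 and 321 in WT. The strains did not overlap. The ratio of the means was 1.65 and the log2 fold change 0.68 (standard error 0.13, limma adjusted p = 0.00281), or 1.06 relative to the median of all genes. The call held in all 14 alternatives, with log2 fold changes between 0.57 and 1.13.

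ATG14 (YBR128C, II from 493081 to 494115) had the largest decrease of the 10, as deposited and after either correction in the plot of fold changes. Its product directs the phosphatidylinositol 3-kinase Vps34 to the site of autophagosome formation. It had 10.9 and 10.7 RPKM in *PUF3Δ*, against 27.4 and 25.2 in WT, from 76 and 90 reads in *PUF3Δ* and 209 and 215 in WT. The strains did not overlap, the ratio of the means was 0.412, and the log2 fold change was -1.21 (standard error 0.12, limma adjusted p = 0.000114), or -0.82 relative to the median of all genes. This call also held in all 14 alternatives, with values between -1.27 and -0.69. ATG9 and ATG14 changed places, since the log2 level of ATG9 minus that of ATG14 within a library was 0.78 and 1.02 in *PUF3Δ* and -1.07 and -0.90 in WT. Scaling a whole library leaves this difference nearly as it is. The correction for gene length does not, since after it the log2 fold changes were 0.60 for ATG9 and -0.69 for ATG14.

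Of the conjugation system, ATG7 alone passed the threshold. ATG7 (YHR171W, VIII from 445713 to 447605), the gene of the activating enzyme for both ubiquitin-like proteins Atg8 and Atg12, had 13.4 and 12.5 RPKM in *PUF3Δ*, against 23.9 and 20.7 in WT. The WT libraries were the higher ones without overlap, with a ratio of the means of 0.580 and a log2 fold change of -0.74 (standard error 0.13, limma adjusted p = 0.00174). Relative to the median of all genes the decrease was smaller, at -0.35, and under quantile normalization the call was lost (log2 fold change -0.30, adjusted p = 0.097). ATG5 (YPL149W, XVI from 271310 to 272194), the gene of the protein that Atg12 is attached to, had 56.7 and 56.99 RPKM in *PUF3Δ*, within the 69.2 and 53.8 of WT. Its log2 fold change of -0.10 (95% interval -0.40 to 0.20) turned to 0.28 under median-of-ratios scaling and to 0.47 after a correction for gene length, while without WT replicate 2 it passed the threshold as lower (-0.28, limma adjusted p = 0.028). ATG8 (YBL078C, II from 80378 to 80731), whose product stays on the membrane as the docking site for receptors and is often taken as a gauge of autophagosome size, had 271.4 and 221.3 RPKM in *PUF3Δ*, on either side of the 232.4 and 233.5 of WT. Its log2 fold change was 0.07, with a 95% interval from -0.18 to 0.33. Without *PUF3Δ* replicate 1 the value turned to -0.07, whereas ATG8 was called higher after median-of-ratios scaling (0.46, limma adjusted p = 0.011) and after the correction for gene length (0.78, adjusted p = 0.000378).

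As deposited, all 3 mitophagy genes were called higher in *PUF3Δ* than in WT, against 18.9% of all genes. After the correction for gene length 2 of the 3 were called higher, against 32.6% of all genes. ATG32 (YIL146C, IX from 74184 to 75773), the gene of the mitochondrial receptor, had 47.9 and 49.3 RPKM in *PUF3Δ*, against 36.2 and 35.7 in WT. The libraries of a strain lay close together and the strains apart, with a ratio of the means of 1.35 and a log2 fold change of 0.43 (standard error 0.09, limma adjusted p = 0.00426), which is 0.81 above the median of all genes. As for ATG9 and ATG14, the call held in all 14 alternatives, with values between 0.41 and 0.85.

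ATG11 (YPR049C, XVI from 661137 to 664673), the gene of the scaffold that also serves the removal of peroxisomes and the delivery of vacuolar enzymes, had 22.01 and 24.1 RPKM in *PUF3Δ*, against 15.1 and 17.3 in WT. The strains did not overlap, with a ratio of the means of 1.42 and a log2 fold change of 0.49 (standard error 0.13, limma adjusted p = 0.0110). The call was lost without *PUF3Δ* replicate 2 (adjusted p = 0.089) and after the correction for gene length (log2 fold change 0.29, adjusted p = 0.063). ATG11 is the longest of the 10 genes, with 3537 bp.

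ATG33 (YLR356W, XII from 840321 to 840914) had 371.0 and 392.7 RPKM in *PUF3Δ*, against 332.5 and 285.3 in WT, from 1480 and 1897 reads in *PUF3Δ* and 1458 and 1397 in WT. The strains did not overlap, but the WT libraries differed from each other by more than the gap between the higher of them and the lower *PUF3Δ* library. The ratio of the means was 1.24 and the log2 fold change 0.31 (standard error 0.10, limma adjusted p = 0.0215). This was the least stable call of the 6, since it was lost without WT replicate 2 (log2 fold change 0.20, adjusted p = 0.062), without *PUF3Δ* replicate 1 (0.35, adjusted p = 0.071), without *PUF3Δ* replicate 2 (0.27, adjusted p = 0.14) and without the filter on low values (adjusted p = 0.085). After the correction for gene length its log2 fold change was 0.95, the highest of the 10.

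**Figure D2:**
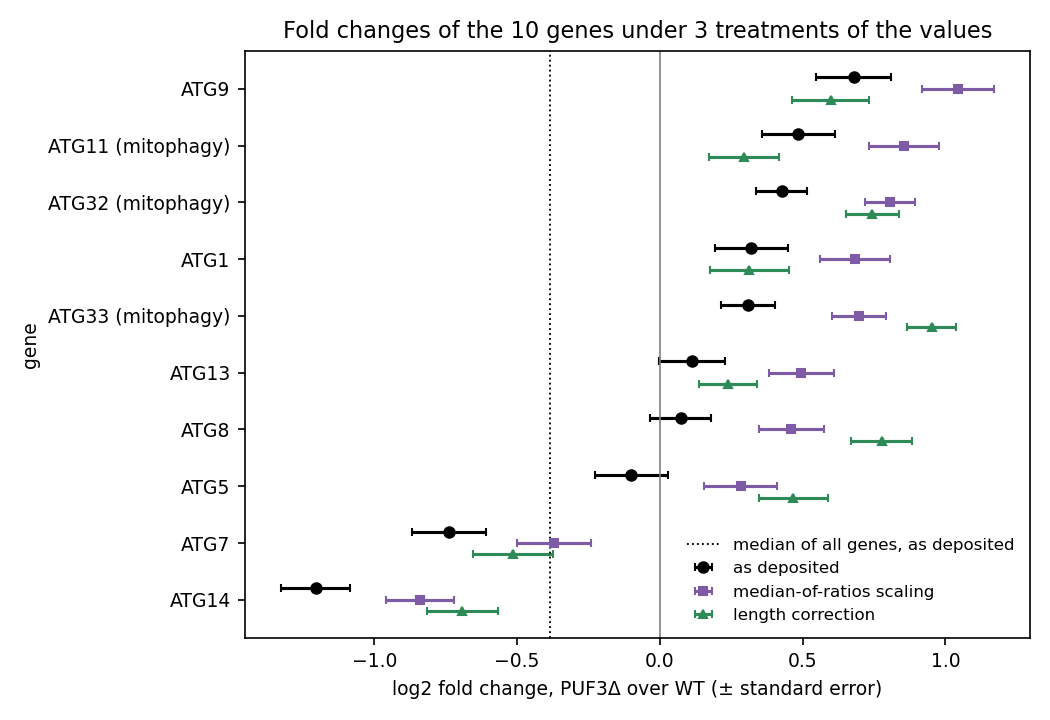
Log2 fold changes of *PUF3Δ* over WT with their standard errors for the 10 genes, as deposited (black circles), after median-of-ratios scaling (purple squares) and after the correction for gene length (green triangles), with the median of all genes as deposited at -0.39 (dotted line). ATG14 and ATG7 stay below 0 and ATG9, ATG11, ATG32, ATG33, ATG1, ATG13 and ATG8 above it under all 3 treatments, while ATG5 lies on either side.

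The mitophagy genes were set against the core genes within each library, where the scaling of a library as a whole largely cancels. The mean log2 level of the 3 mitophagy genes minus that of the 7 core genes was 1.15 and 1.24 in *PUF3Δ*, against 0.64 and 0.69 in WT. The difference between the strains was 0.53, with a pooled SD of 0.05 between libraries of a strain. That SD leaves out the spread among the genes of a class. The log2 fold changes ran from -1.21 to 0.68 among the core genes, a range that holds the 0.31 to 0.49 of the mitophagy genes. The difference of 0.53 is a description of genes chosen with earlier results known, and no test was made of it. The mean of the core genes combined changes in opposite directions, ATG9 upwards and ATG7 and ATG14 downwards, and it was 5.08 and 5.07 in *PUF3Δ* and 5.23 and 5.17 in WT. Without ATG7 and ATG14, a choice made after their values were seen, the mitophagy genes minus the other 5 core genes gave 0.60 and 0.67 in *PUF3Δ* and 0.44 and 0.45 in WT, a difference of 0.19. Leaving out the core genes with the lowest log2 fold changes was bound to narrow the difference between the strains. ATG9 of the core class had a log2 fold change of 0.68 as deposited, against 0.31 to 0.49 for the mitophagy genes, an order that was not tested and did not hold after the length correction (0.60, against 0.74 for ATG32 and 0.95 for ATG33). For the receptor and its scaffold, the log2 level of ATG32 minus that of ATG11 was 1.09 and 1.00 in *PUF3Δ* and 1.21 and 1.00 in WT, which overlapped.

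Gene length moved with the fold change in these libraries. Over all genes tested, the median log2 fold change ran from -0.75 in the shortest eighth by length to 0.22 in the longest. The longest eighth holds ATG1, ATG9 and ATG11, the shortest ATG8, and ATG33 is in the next one. The 200 genes nearest in length to ATG8 had a median of -0.81 and those nearest to ATG33 of -0.69, against 0.07 and 0.31 for the genes themselves. The medians near ATG1, ATG9 and ATG11 were -0.01, 0.10 and 0.24, against 0.32, 0.68 and 0.49, so these long genes lay less far above genes of their own length. ATG14 and ATG7 lay below the genes near them in length, which had medians of -0.54 and -0.22. With a lowess correction of each library for length, ATG5, ATG8, ATG9, ATG32 and ATG33 were called higher and ATG7 and ATG14 lower, against 32.6% of all genes higher and 31.9% lower. The part of length in the fold changes of single genes was not tested, and because each library holds a single strain, a preparation that favoured long mRNAs and the deletion cannot be told apart.

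**Figure D3:**
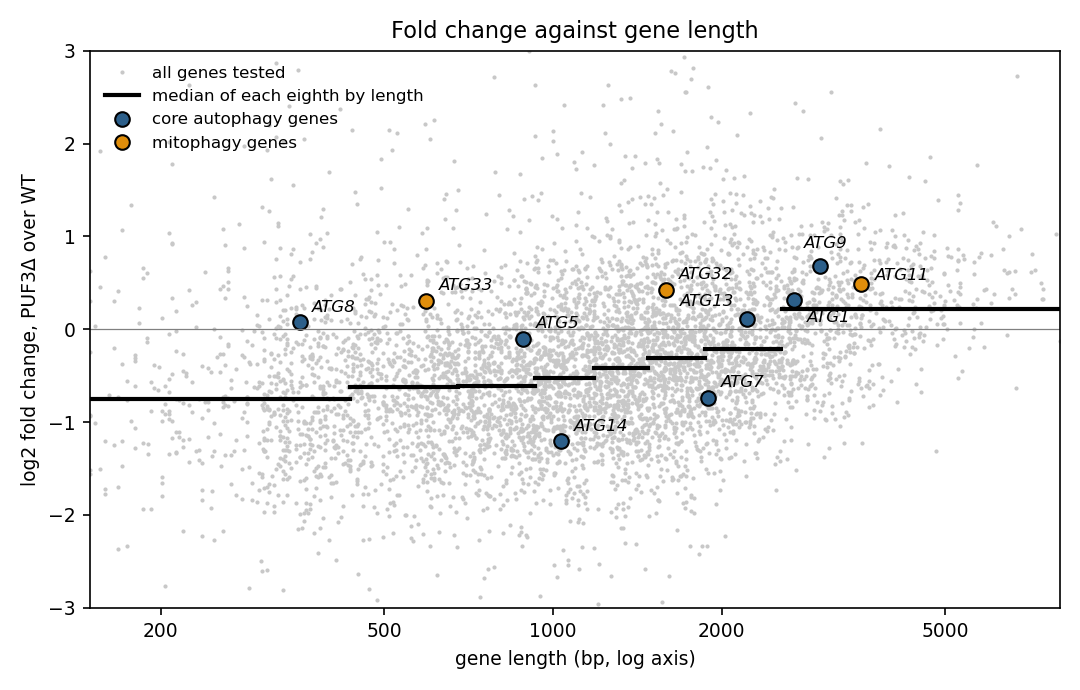
Log2 fold change of *PUF3Δ* over WT against gene length on a log axis, for all genes tested (grey points, 90 of them outside the axes), the median of each eighth of the genes by length (black bars), the core genes (blue) and the mitophagy genes (orange). The bars climb from -0.75 to 0.22, and ATG8, ATG33, ATG5 and ATG32 lie well above the bar of their length while ATG14 and ATG7 lie below it.

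The lists of other pathway genes are likewise read against all genes tested, of which 18.9% were higher and 54.2% lower as deposited, and 33.9% higher and 33.2% lower after median-of-ratios scaling. After the correction for gene length 32.6% were higher and 31.9% lower. Of 14 other core genes, 1 was higher (7.14%), 6 were lower (42.9%) and 7 did not pass, with a median log2 fold change of -0.30. After median-of-ratios scaling the counts were 5 higher (35.7%) and 2 lower (14.3%), and after the length correction 4 higher (28.6%) and 3 lower (21.4%). VPS30, also known as ATG6, whose product sits beside Atg14 in the lipid kinase complex, had 18.7 and 21.3 RPKM in *PUF3Δ*, against 32.2 and 38.4 in WT (log2 fold change -0.78). After the correction for gene length VPS30 had -0.49 and was still called lower. The catalytic subunit VPS34 had 21.7 and 21.2 RPKM in *PUF3Δ* and 22.7 and 19.5 in WT, which overlapped. VPS34 was called higher after median-of-ratios scaling (0.40, limma adjusted p = 0.024) but not after the correction for gene length (0.04, adjusted p = 0.82). ATG10, the gene of the conjugating enzyme that acts after Atg7 on Atg12, had 13.6 and 12.7 RPKM in *PUF3Δ*, against 24.7 and 25.3 in WT (log2 fold change -0.88), but after the correction for gene length it had -0.21 and did not pass (limma adjusted p = 0.16). ATG18, which encodes a phosphoinositide-binding protein, fell by 0.62 on the log2 scale, a call that was lost after median-of-ratios scaling. Of the scaffold that joins Atg1 and Atg13 in starved cells, ATG29 was higher (0.56, from 99 and 152 reads in *PUF3Δ* and 70 and 106 in WT, and it overlaps another listed gene). That call was lost without WT replicate 1 (0.35, limma adjusted p = 0.093), without *PUF3Δ* replicate 2 (0.40, adjusted p = 0.17) and without the filter on low values (adjusted p = 0.13). ATG17 of that scaffold had 16.2 and 19.1 RPKM in *PUF3Δ* and 9.62 and 16.9 in WT and did not pass as deposited. It was called higher after median-of-ratios scaling (0.79, limma adjusted p = 0.026) and after the correction for gene length (0.86, adjusted p = 0.013). Its log2 fold change was 0.05 without WT replicate 1 and 0.81 without WT replicate 2. ATG31 was lower as deposited (-0.32) but turned to 0.06 under median-of-ratios scaling. After the correction for gene length ATG31 was called higher (0.33, limma adjusted p = 0.024), as was ATG29 (1.19).

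Among 12 further genes of selective autophagy, 5 were higher (41.7%, against 18.9% of all genes) and 3 lower (25.0%, against 54.2%), with a median of 0.03. Median-of-ratios scaling gave 9 higher (75.0%, against 33.9%) and 2 lower (16.7%, against 33.2%). The length correction gave 8 higher (66.7%, against 32.6%) and 2 lower (16.7%, against 31.9%). ATG36, the gene of the peroxisome receptor, had 110.7 and 117.0 RPKM in *PUF3Δ*, against 83.9 and 68.8 in WT (log2 fold change 0.58). ATG39, the gene of a receptor for the nuclear envelope, had 59.6 and 63.4 RPKM in *PUF3Δ*, against 42.5 and 40.3 in WT (0.56). ATG20, which encodes a sorting nexin, was higher by 0.50 on the log2 scale, or by 0.29 without WT replicate 1, and the call was lost without *PUF3Δ* replicate 1 (limma adjusted p = 0.071), without *PUF3Δ* replicate 2 (adjusted p = 0.084) and without the filter on low values (adjusted p = 0.11). ATG40, the gene of the receptor for the cortical endoplasmic reticulum, had 41.9 and 38.8 RPKM in *PUF3Δ* and 45.5 and 37.5 in WT, and ATG19, the receptor gene for vacuolar aminopeptidase, had 137.2 and 126.5 in *PUF3Δ* and 138.0 and 137.5 in WT. Neither passed as deposited, but both were called higher after median-of-ratios scaling (0.35 for ATG40 and 0.32 for ATG19) and after the correction for gene length (0.57 for ATG40 and 0.37 for ATG19). ATG40 and ATG19 were singled out after their values were seen. The lowest value of the list was that of ATG41 (ICY2, YPL250C), with 34.8 and 32.9 RPKM in *PUF3Δ*, against 198.6 and 190.0 in WT, a log2 fold change of -2.49. Its product is known to bind Atg9. ATG27, whose product helps Atg9 to travel, and ATG21, which encodes a phosphoinositide-binding protein, had log2 fold changes of -0.76 and -0.59. The call of ATG27 was lost after the correction for gene length (-0.17, limma adjusted p = 0.14) and that of ATG21 after median-of-ratios scaling (-0.21, adjusted p = 0.081).

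Genes for breakdown inside the vacuole had the highest median of the 5 lists, with a log2 fold change of 0.89. Of 8, 6 were higher in *PUF3Δ* (75.0%, against 18.9% of all genes) and 2 did not pass, and median-of-ratios scaling gave 7 higher (87.5%, against 33.9%). The length correction also gave 7 higher (87.5%, against 32.6%). PRB1, the gene of vacuolar proteinase B, had 762.4 and 790.1 RPKM in *PUF3Δ*, against 236.8 and 229.1 in WT (log2 fold change 1.73, standard error 0.07). AMS1, the gene of the alpha-mannosidase that reaches the vacuole by selective autophagy, had 76.7 and 69.7 in *PUF3Δ*, against 22.4 and 24.8 in WT (1.59, standard error 0.10). ATG15, the gene of the lipase that opens autophagic bodies, had 86.5 and 85.3 in *PUF3Δ*, against 37.7 and 43.4 in WT (1.07, standard error 0.10). Each of these increases was larger than that of ATG9. ATG22, which encodes an amino acid exporter of the vacuole, had 24.3 and 24.7 RPKM in *PUF3Δ* and 32.7 and 25.9 in WT and did not pass.

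Of 9 genes with a reported link to mitophagy other than the ATG genes, 2 were higher (22.2%) and 5 lower (55.6%), close to the 18.9% and 54.2% of all genes, as was the median of -0.42. Median-of-ratios scaling gave 4 higher (44.4%, against 33.9% of all genes) and 3 lower (33.3%, against 33.2%). The length correction gave 5 higher (55.6%, against 32.6%) and 3 lower (33.3%, against 31.9%), with a median of 0.26. YME1, the gene of the inner membrane protease that processes Atg32, had 118.3 and 132.7 RPKM in *PUF3Δ*, against 87.0 and 94.5 in WT (log2 fold change 0.46), and DNM1, the gene of the fission dynamin, had 62.3 and 65.3 in *PUF3Δ*, against 52.1 and 52.8 in WT (0.28). The call of DNM1 was lost without *PUF3Δ* replicate 1 (limma adjusted p = 0.085) and without *PUF3Δ* replicate 2 (adjusted p = 0.15). SLT2, the gene of the cell integrity kinase required for mitophagy, had 41.2 and 44.7 RPKM in *PUF3Δ*, against 113.0 and 109.1 in WT (-1.35). WHI2, a stress response gene, fell to 72.5 and 81.5 in *PUF3Δ*, against 192.8 and 170.3 in WT (-1.23). PPG1, which encodes a phosphatase that keeps Atg32 dephosphorylated, fell to 28.1 and 28.0 in *PUF3Δ*, against 60.6 and 55.3 in WT (-1.02). After the length correction the log2 fold changes were -0.99 for SLT2, -0.86 for WHI2 and -0.53 for PPG1, and each was still called lower.

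**Figure D4:**
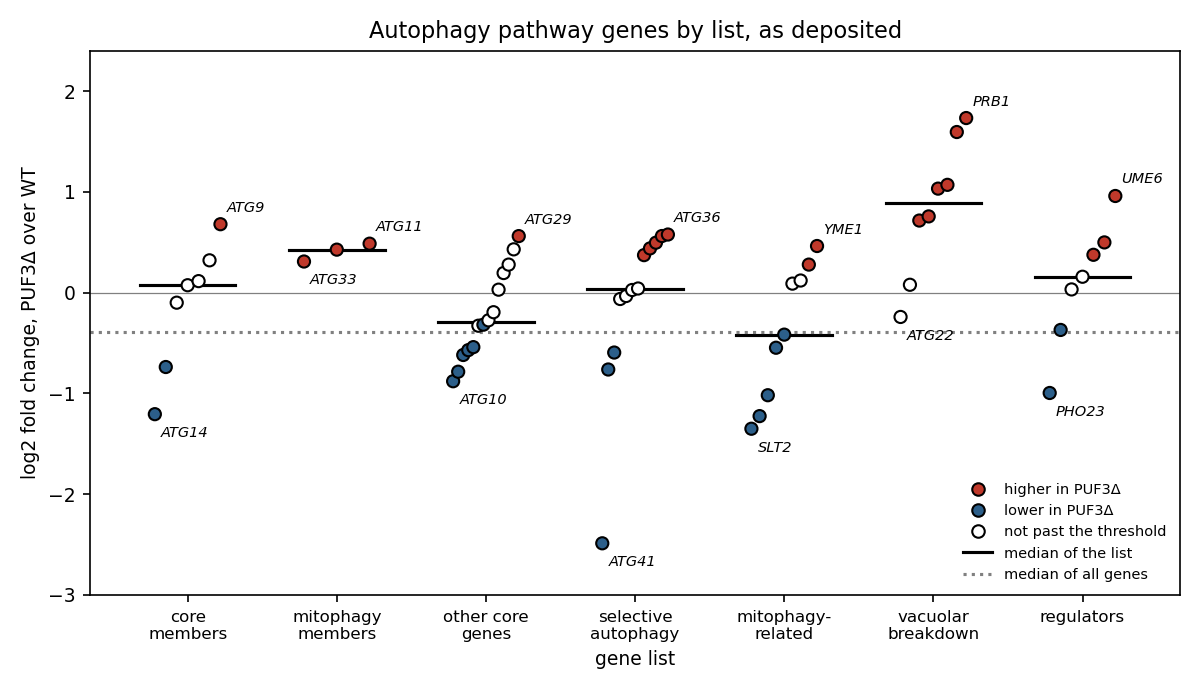
Log2 fold changes of *PUF3Δ* over WT as deposited, for the 7 core and 3 mitophagy genes and for 5 lists of other pathway genes, each point a gene, red where higher, blue where lower and white where it did not pass the threshold. Black bars are medians of a list, from -0.42 in the mitophagy-related list to 0.89 in the vacuolar list, and the dotted line is the median of all genes at -0.39, which moves to -0.01 under median-of-ratios scaling.

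Of 7 regulators of autophagy, 3 were higher (42.9%, against 18.9% of all genes) and 2 lower (28.6%, against 54.2%). Median-of-ratios scaling gave 5 higher (71.4%, against 33.9%) and 1 lower (14.3%, against 33.2%). After the length correction 2 were higher (28.6%, against 32.6%) and 1 lower (14.3%, against 31.9%). UME6, the gene of the repressor that acts on ATG8, had 103.9 and 104.6 RPKM in *PUF3Δ*, against 45.2 and 62.5 in WT (log2 fold change 0.96, standard error 0.15). The ATG8 levels overlapped between the strains as deposited, and ATG8 was called higher after median-of-ratios scaling and after the correction for gene length. PHO23, the gene of a subunit of the histone deacetylase that represses ATG9, had 57.8 and 57.9 RPKM in *PUF3Δ*, against 112.3 and 120.4 in WT (-0.996, standard error 0.08). Relative to the median of all genes this was -0.61, and after the correction for gene length PHO23 had -0.47 and was still called lower. The part of UME6 and PHO23 in the levels of ATG8 and ATG9 was not tested. PHO23 overlaps another listed gene, with which reads could have been split. RPH1, the gene of a further repressor, had 62.6 and 56.8 in *PUF3Δ* and 57.5 and 59.2 in WT and did not pass as deposited. It was called higher after median-of-ratios scaling (0.41, limma adjusted p = 0.0075) but not after the correction for gene length (0.11, adjusted p = 0.35). TOR1 and KOG1 of the TOR complex, which holds autophagy down in fed cells, were higher by 0.50 and 0.38 as deposited, but after the correction for length they had -0.18 and -0.000486 and did not pass, and both are long genes. PHO85, the gene of a cyclin-dependent kinase, was lower by -0.37 and turned to 0.02 under median-of-ratios scaling.

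Of 6 marker genes of growth without glucose, 5 were higher in *PUF3Δ*, against 18.9% of all genes, with ratios of the means between 1.48 and 6.73. ADH2, the ethanol-oxidizing alcohol dehydrogenase, had 2745 and 2313 RPKM in *PUF3Δ*, against 413.1 and 535.2 in WT, and PCK1, of glucose synthesis, had 5311 and 5258 in *PUF3Δ*, against 699.9 and 870.9 in WT. The ratios were smaller for ICL1 (1.48) and FBP1 (1.56), of the glyoxylate cycle and of glucose synthesis, and for CIT1 (1.62), the gene of mitochondrial citrate synthase. CYC1, the gene of cytochrome c, had 715.6 and 748.7 in *PUF3Δ* and 697.3 and 675.6 in WT and did not pass as deposited. It was called higher after median-of-ratios scaling (log2 fold change 0.48, limma adjusted p = 0.0011) and after the correction for gene length (0.80, adjusted p = 5.4e-05). All 6 were well expressed in every library. The part of the growth state in the values of the autophagy and vacuolar genes was not tested.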

How the data were processed

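RNA was sequenced from 2 *PUF3Δ* and 2 WT libraries. Per the labels and the paper's methods, the authors mapped reads by SOAP2 with no more than 2 mismatches and deposited 1 RPKM value per gene and library. How strand and multiply mapped reads were handled, and the SOAP2 version, are not given in the sources used here. The submitters' processing notes name R64, but in the files 16.6% of the matched genes have the coordinates of R64 and 97.1% its gene length, so positions and sequences come from R64 (NCBI RefSeq) alone, joined by identifier for 5984 of 6673 genes, all members included. RPKM times length summed to 1000000 in each library, and 100% of the values were whole reads on that basis (tolerance 0.01 reads plus rounding), from which read counts were taken.

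The test across genes was limma 3.58.1 (R 4.3.3) with trended empirical Bayes variances, fitted to log2(RPKM + 1) for the genes averaging an RPKM of 1 or more. The pseudocount understates changes of low genes. Libraries of the same strain were further apart than sampling noise (chi-square per degree of freedom 11.7 in WT and 4.60 in *PUF3Δ*). The fit was also run on simulated counts with planted changes and with neither a trend with gene length nor a shift of most genes. That run cannot show how the fit behaves where such a trend or shift is present. Motifs and figures were made in Python 3.11.15. Lists were described by counts and medians, without a set test. The named genes were all members, *PUF3*, the 3 largest increases and decreases past the threshold in each pathway list, and UME6, RPH1, PHO23, ATG17, ATG29 and ATG31. VPS34, ATG19, ATG40 and ATG22 were added after their values were seen. Strain and growth markers (LYS2, MET17, MF(ALPHA)1, STE2, ADH2, ICL1, PCK1, FBP1, CYC1 and CIT1) were named as checks. The members and lists were chosen with earlier results of these data known. Alternatives were other pseudocounts, filters and scalings, a replicate block, a length correction (lowess, span 0.5) and leaving out each library. A planned count test on recovered reads was replaced by limma's voom, chosen after seeing the data.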

Additional observations from a re-analysis of the deposited data

How the results depend on the processing

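Calls of the 10 genes kept their direction and side of the threshold with pseudocounts of 0.1 and 0.5, a minimum mean RPKM of 5 and a replicate block, and ATG9, ATG14 and ATG32 kept theirs in all 14 alternatives run. The genes called higher and lower in *PUF3Δ* over the whole table, 1108 and 3175, became 1984 and 1945 with median-of-ratios scaling, 1869 and 2003 with quantile normalization, 1911 and 1870 with the length correction, 1954 and 1906 with the length correction and replicate block, and 2027 and 1920 with voom. The 4 members called higher became 7 with median-of-ratios scaling and with voom, 6 with quantile normalization and 5 with both length corrections. With both length corrections ATG5 and ATG8 came in and ATG11 dropped out. Without the filter on low values the count stayed at 4, but with ATG1 in place of ATG33. The 2 called lower became 1 with quantile normalization, which also lowered the mitophagy minus core difference to 0.46. With the replicate block alone, 1067 genes were higher and 3117 lower, the member counts stayed at 4 and 2, and no member's call changed. Deviations of libraries with the same replicate number correlated at -0.01 across genes. With 2 pairs this cannot tell whether libraries of the same number were grown or prepared together. Leaving out each library gave 826 to 1222 higher genes, 2629 to 3147 lower genes, 2 to 4 members higher (2, ATG9 and ATG32, without *PUF3Δ* replicate 2), 2 to 3 lower (3, with ATG5, without WT replicate 2) and a mitophagy minus core difference between 0.48 and 0.57.

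The sign of ATG5 turned with median-of-ratios scaling (0.28), quantile normalization (0.28), voom (0.29) and both length corrections (0.47). Leaving out each library gave -0.279 to 0.0794 for ATG5, -0.0232 to 0.251 for ATG13 (negative without WT replicate 1), -0.0732 to 0.220 for ATG8 and -0.0370 to 0.1001 for RPH1 (both negative without *PUF3Δ* replicate 1). ATG31 turned to 0.0615, 0.13 and 0.0699 with median-of-ratios scaling, quantile normalization and voom, and to 0.33 with both length corrections. PHO85 turned to 0.0177 with median-of-ratios scaling and with voom and to 0.15 with both length corrections, which also turned TOR1 to -0.18 and KOG1 to -0.000486. The cause was not tested. A planned quasi-likelihood test on counts was not run, and voom on the recovered reads took its place. Genes with few reads, such as ATG14 and ATG10, carry a larger relative counting error than genes with many reads.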
